A study of Sus scrofa with 12 samples.

Results

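This comparison set cultured porcine valvular interstitial cells (VICs), the fibroblast-like cells that fill the leaflets of a heart valve, treated with TGF-β1 for 8 h against untreated cells of the same passage. It set 3 treated against 3 untreated arrays of the 12 Affymetrix arrays of the series, chosen by their titles and not by any measured value. All the cells came from aortic valves of adult pigs, were freed with collagenase II, grown on tissue culture polystyrene (TCPS) and passaged 2 times (P2). The 8 h group had porcine TGF-β1 in its medium, 5 ng/ml, over 8 h, and the untreated group none. Another P2 group of 3 arrays had the same dose for 24 h and entered the fit, where it shared the estimate of the spread, and 3 arrays of freshly isolated, uncultured cells (P0) completed the series. Every P2 group was kept in low-serum medium and harvested on day 3 of culture, so the groups share the stiff plastic surface, the passages and the time in culture. The labels call the 3 arrays of a group biological replicates, but do not say whether they came from separate animals, pooled valves or separate cultures. The p-values below therefore measure only spread among these arrays. In the main fit, it is the spread left after differences between replicate numbers are taken out.

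TGF-β1 is a secreted cytokine that signals through a pair of membrane kinases, the type II receptor and the type I receptor TGFBR1. These phosphorylate SMAD2 and SMAD3, which join SMAD4 and enter the nucleus to switch genes on or off. Among the genes switched on are inhibitors of the pathway itself, so the response limits its own course. The related bone morphogenetic proteins (BMPs) act through SMAD1 and are known for inducing the ID genes. In valves, TGF-β1 is known for turning VICs into myofibroblasts, contractile cells that lay down collagen, and it is studied for its part in valve fibrosis and calcification.

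Each array gave 1 log2 expression value per probe set, a group of short DNA probes for 1 transcript, so that a difference of 1 means a factor of 2. A probe set was called when the test of limma, a linear model fitted across all 17638 probe sets tested, gave an adjusted p under 0.05 with the replicate number as a block, in the 9 P2 arrays. At 8 h, 1006 probe sets were called higher (5.70% of those tested) and 1194 lower (6.77%), 12.5% together, and 136 of the higher and 164 of the lower calls were at least 2-fold. With 1 probe set per named gene, 370 of 6014 genes were called higher (6.15%) and 483 lower (8.03%), 14.2% together. In all 853 of these genes the 3 differences within a replicate number pointed the same way, and in 704 the untreated and 8 h arrays did not overlap. The test that called these genes favours both, so neither adds support. Over all probe sets, counted in place of genes, 25.5% had groups that did not overlap, and the median log2 change was -0.01.

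The number of calls depended on which arrays entered the fit. Without all arrays of replicate 1, limma called 3 probe sets, while 3301 had an unadjusted p under 0.05. PTHLH was the only named gene among those 3 calls. Leaving out replicate 2 or 3 left 763 and 636 calls. Without 1 array at a time, the calls numbered 614 without 8 h replicate 3, 619 without 8 h replicate 1, 1045 without 8 h replicate 2, 1064 without untreated replicate 1, 1099 without untreated replicate 3 and 1546 without untreated replicate 2. They numbered 1781, 2255 and 2562 without 24 h replicate 1, 2 and 3, against 2200 with every P2 array. Fitted without the replicate block, the same 9 P2 arrays gave 685 calls. Of the 94 genes picked for description by rule, 85 were called, and 40 of these stayed called in each of the 9 fits that left out 1 array. For the others, the arrays whose removal ended the call are given with the adjusted p. For further list members, only the list's count was recomputed.

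Markers of the labelled cell type were high on every array. The 12 measured markers of valve interstitial cells and fibroblasts had mean log2 values from 10.93 to 11.29 on the untreated arrays and from 10.86 to 11.16 at 8 h, and none lay at the level of the control probe sets. Endothelial markers were also present: the mean over 17 was 7.04, 7.37 and 5.66 on untreated replicates 1, 2 and 3 and 7.01, 7.24 and 5.81 at 8 h, lower in replicate 3 of both groups. Macrophage and monocyte markers, 16 measured, averaged 6.60 to 7.17 untreated and 6.40 to 7.01 at 8 h. Lymphocyte, erythrocyte, muscle, adipocyte and epithelial lists held 2, 2, 6, 5 and 1 measured members, whose log2 changes ran from -0.80 to 0.40; limma called none of them. In a bulk sample, fewer cells of a type and less RNA per cell cannot be told apart.

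**Figure D1:**
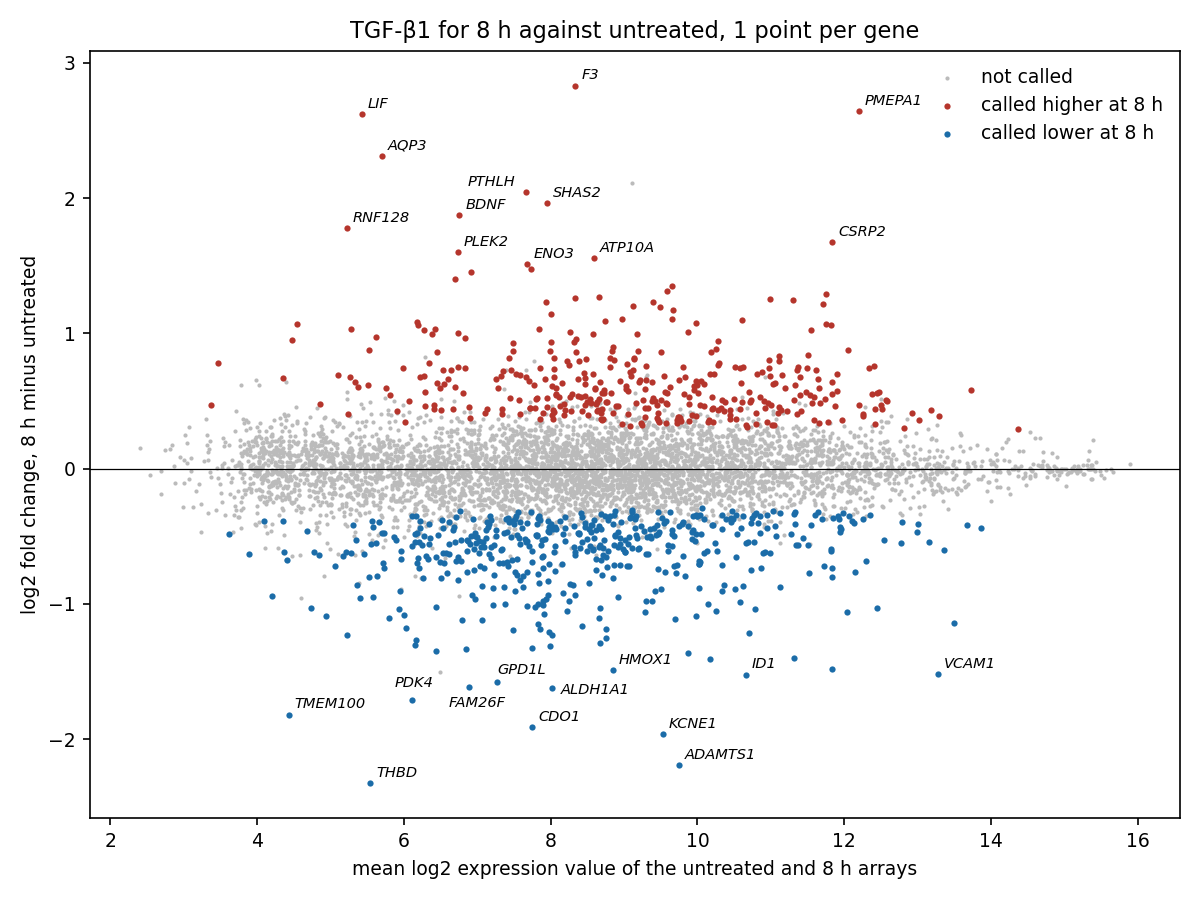
Each point is 1 gene: the x axis is its mean log2 expression value over the 6 untreated and 8 h arrays, and the y axis its log2 fold change, 8 h minus untreated. Red marks the 370 genes called higher and blue the 483 called lower, and names mark the 12 rises and 12 falls picked by rule, among them F3 (2.83) and ADAMTS1 (-2.19). For LIF, AQP3, RNF128, THBD and TMEM100, the mean of 1 group lay under the control level of 4.58. Their heights are therefore fitted differences and not measured changes.

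Known target genes of TGF-β rose. Of 12 measured members of the list of TGF-β induced targets, 8 were called higher and 1 lower. The shares were 66.7% higher, beside 6.15% of all genes, and 8.33% lower, near the 8.03% of all genes. The median log2 change was 0.85 against -0.01 over all genes. This list, too, was chosen with earlier results of these data known, so its shares are a description only. PMEPA1, a membrane protein that traps SMADs and dampens the pathway, stood at 10.86, 11.53 and 10.24 on untreated replicates 1, 2 and 3 and at 13.39, 13.43 and 13.73 at 8 h. The groups were far apart, and the 8 h arrays were closer to each other than the untreated arrays. The rise was 6.24-fold (log2 change 2.64, SE 0.28, adjusted p = 0.0028), and its 4 other probe sets were called the same way. Of the other feedback inhibitors measured, BAMBI had a log2 change of 0.41 and TGIF1 of 0.29, neither called.

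PTHLH encodes parathyroid hormone-related protein, a local hormone of bone and smooth muscle. It rose from 6.69, 6.82 and 6.43 to 8.98, 8.74 and 8.35, 4.12-fold (log2 change 2.04, SE 0.10, adjusted p = 0.000426). SHAS2, the pig hyaluronan synthase 2, which makes the hyaluronan of loose valve matrix, rose from 7.01, 6.70 and 7.19 to 8.90, 8.87 and 9.03, 3.90-fold (log2 change 1.97, SE 0.16, adjusted p = 0.00114). The 3 treated arrays of this gene lay close together, well above the untreated arrays. SNAI1, a repressor known from epithelial-to-mesenchymal transition, had untreated values of 6.62, 6.35 and 5.61 and 8 h values of 7.83, 7.68 and 7.42, 2.74-fold higher (log2 change 1.45, SE 0.17, adjusted p = 0.0035). The rises of TUFT1 (1.06), BHLHE40 (0.75) and KLF10 (0.64), the last a TGF-β-inducible zinc finger factor, were smaller. ANGPTL4, a secreted inhibitor of lipoprotein lipase listed among the induced targets, was the member called lower, with a log2 change of -0.98 (SE 0.14, adjusted p = 0.00625). Without the replicate block, 6 of the 12 were called higher and none lower, and without replicate 1 PTHLH alone was called. Leaving out replicate 3 kept 6 calls higher and 1 lower, as did leaving out replicate 2.

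**Figure D2:**
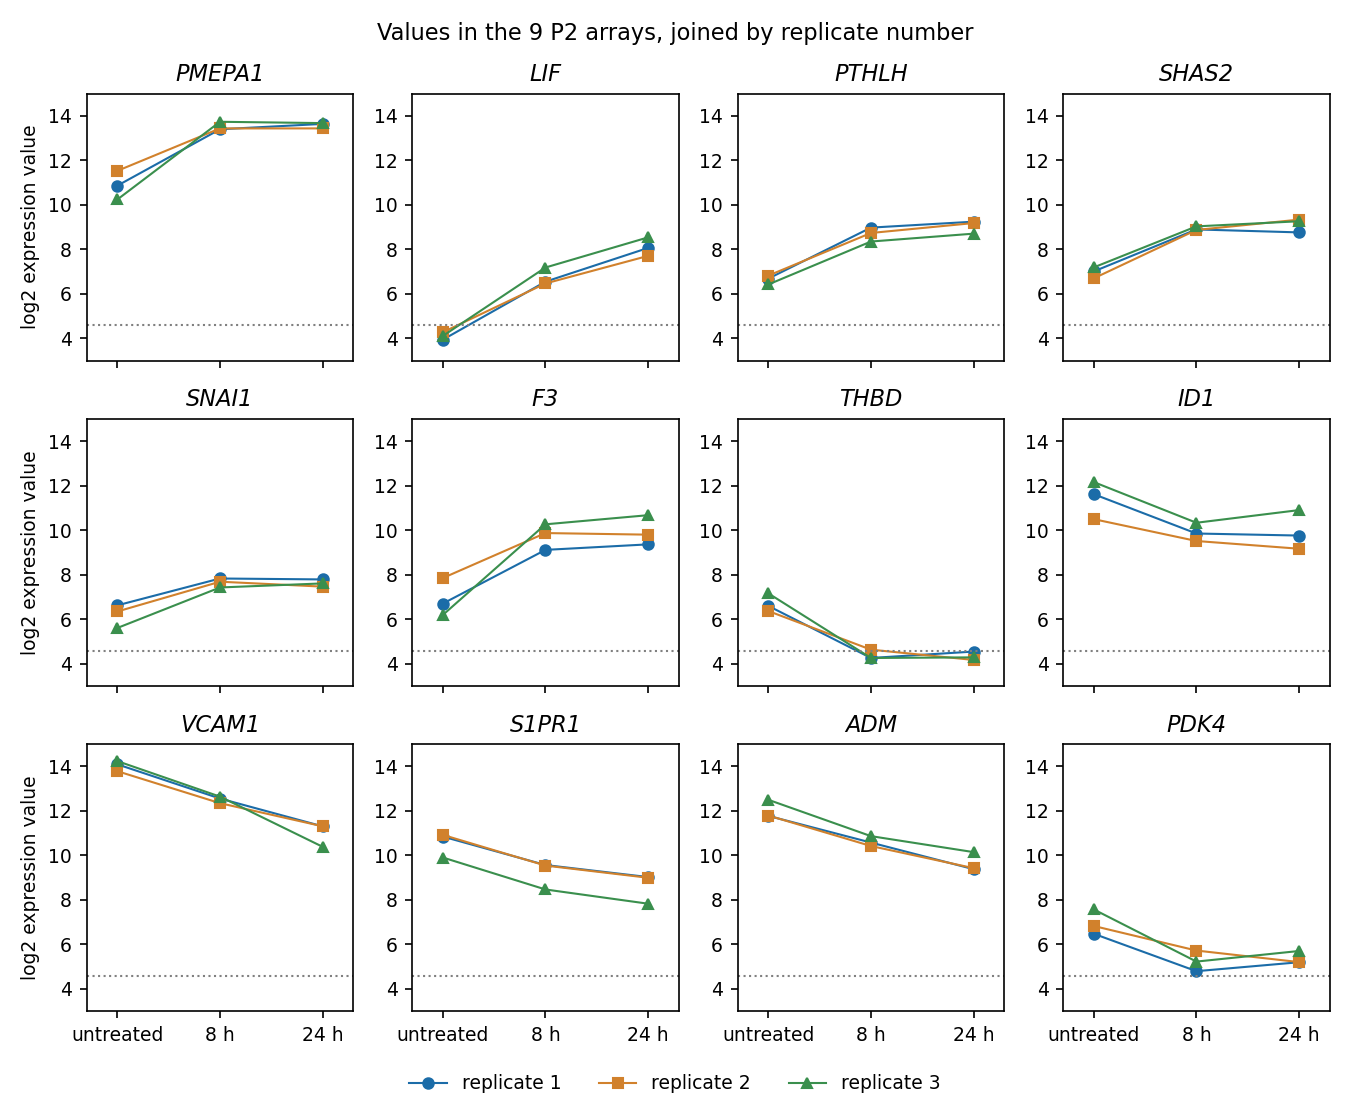
Each panel shows 1 gene: the y axis is the log2 expression value and the x axis the untreated, 8 h and 24 h groups of 3 arrays, with lines joining arrays of the same replicate number and a dotted line at the control level of 4.58. LIF lies under that line untreated and at 6.55, 6.47 and 7.19 at 8 h, and THBD at 8 h reads 4.26, 4.63 and 4.26, at or near the line.

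The genes that make and activate TGF-β moved less. Of 10 measured ligands, activators and antagonists, 4 were called higher (40%, beside 6.15% of all genes) and none lower (beside 8.03%). FSTL3, a secreted antagonist of activins, rose 2.13-fold (log2 change 1.09, SE 0.17, adjusted p = 0.00847). TGFB1, the gene of the added cytokine, rose from 7.54, 7.50 and 6.65 to 8.24, 7.95 and 7.60, 1.62-fold (log2 change 0.69, SE 0.16, adjusted p = 0.0313). The 24 h values of TGFB1 were 9.02, 8.37 and 8.45, and replicate 3 was lower than the others untreated and at 8 h. THBS1, a matrix protein that can free latent TGF-β, rose 1.49-fold (adjusted p = 0.0113), and ITGAV, an integrin subunit that pulls on the latent complex, 1.37-fold (adjusted p = 0.0301). TGFB2 and TGFB3 had log2 changes of 0.31 and -0.41 and were not called. FSTL3 lost its call without 8 h replicate 1 (adjusted p = 0.0508), THBS1 without 8 h replicate 1 or 3 (adjusted p up to 0.0746), TGFB1 without untreated replicate 1 or 3, 8 h replicate 1, 2 or 3 or 24 h replicate 1 (adjusted p up to 0.137) and ITGAV without untreated replicate 1, 2 or 3, 8 h replicate 1, 2 or 3 or 24 h replicate 1 (adjusted p up to 0.152). Without the block, FSTL3 alone was called, and over all 5 THBS1 probe sets the median change was 0.16, not called.

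Receptors and SMADs moved in both directions. Of 12 measured, 4 were called higher (33.3%, beside 6.15% of all genes) and 2 lower (16.7%, beside 8.03%). BMPR1B, a type I BMP receptor, read 5.86, 6.05 and 4.99 untreated and 6.78, 6.74 and 6.64 at 8 h, 2.12-fold higher (log2 change 1.09, SE 0.17, adjusted p = 0.00882). TGFBR1 rose 1.54-fold (adjusted p = 0.0112), ENG, a co-receptor best known from endothelium, 1.56-fold (adjusted p = 0.0171), and ACVR2A, a type II activin receptor, had a log2 change of 0.60 (adjusted p = 0.0156). SMAD3, the transducer of the signal, fell from 6.96, 7.09 and 7.38 to 6.08, 6.56 and 6.32, a log2 change of -0.82 (SE 0.11, adjusted p = 0.00519). Its groups did not overlap, and its 24 h values of 6.65, 6.88 and 7.04 lay between the untreated and 8 h levels. SMAD1, the BMP transducer, had a log2 change of -0.38 (adjusted p = 0.0293), and SMAD4, shared by the TGF-β and BMP branches, of 0.20, not called. TGFBR1 lost its call without 8 h replicate 2 or 3 (adjusted p up to 0.0722) and ENG without untreated replicate 1 or 3 or 8 h replicate 1, 2 or 3 (adjusted p up to 0.0985). ENG was also not called without the block (adjusted p = 0.292).

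Among 9 measured BMP targets and antagonists, 1 was called higher (11.1%, beside 6.15% of all genes) and 2 lower (22.2%, beside 8.03%). ID1, an inhibitor of basic helix-loop-helix factors and the classic BMP target, read 11.61, 10.49 and 12.16 untreated and 9.85, 9.51 and 10.33 at 8 h. Every treated array lay below every untreated array, and the fall was 2.87-fold (log2 change -1.52, SE 0.19, adjusted p = 0.00439). ID3 had untreated values of 14.08, 13.90 and 14.11 and 8 h values of 13.89, 13.73 and 13.97, a log2 change of -0.17 that was not called (adjusted p = 0.194), and ID4 a log2 change of 0.14. TMEM100, a membrane protein downstream of BMP in endothelium, read 4.98, 4.42 and 6.62 untreated and 3.65, 3.32 and 3.59 at 8 h. Its 8 h mean lay under the control level of 4.58, so its fall was at least 1.69-fold (adjusted p = 0.0182). HES1, a repressor best known as a Notch target, rose from 6.43, 5.85 and 5.39 to 7.0, 7.21 and 6.44, 1.99-fold (adjusted p = 0.00675). TMEM100 lost its call without 8 h replicate 1 or 3 (adjusted p up to 0.0932), and also in the 6 arrays alone (adjusted p = 0.0508) or with values raised to the control level (adjusted p = 0.227). Without the block none of the 3 was called, with adjusted p = 0.144 for ID1, 0.0652 for TMEM100 and 0.146 for HES1; the levels of ID1 differed between replicate numbers in every P2 group.

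Among genes of blood clotting, tissue factor rose and thrombomodulin and urokinase fell. F3, tissue factor, the receptor that starts coagulation, read 6.70, 7.85 and 6.19 untreated and 9.11, 9.87 and 10.26 at 8 h. The lowest treated array was above the highest untreated array, and the rise was 7.12-fold (log2 change 2.83, SE 0.42, adjusted p = 0.00725). THBD, thrombomodulin, which turns thrombin into an anticoagulant enzyme, fell from 6.60, 6.36 and 7.16 to 4.26, 4.63 and 4.26. Its 8 h mean was under the control level, and counted from that level the fall was 4.35-fold (adjusted p = 0.00167). PLAU, the urokinase that activates plasminogen, fell from 11.21, 10.55 and 10.85 to 9.71, 9.67 and 8.99, 2.66-fold (log2 change -1.41, SE 0.23, adjusted p = 0.00959). TFPI, which blocks tissue factor, fell 1.66-fold (adjusted p = 0.046), with replicate 3 far lower than the others in each group (7.39, 7.17 and 5.15 untreated). In all, 1 of 16 measured coagulation and fibrinolysis genes was called higher (6.25%, beside 6.15% of all genes) and 3 lower (18.8%, beside 8.03%). PLAT, PROCR and SERPINE2 had log2 changes of 0.04, -0.07 and -0.19 and were not called. PLAU lost its call without 8 h replicate 1 or 3 (adjusted p up to 0.0577) and TFPI without untreated replicate 1, 2 or 3, 8 h replicate 1, 2 or 3 or 24 h replicate 1 or 2 (adjusted p up to 0.183). TFPI was also not called without the block (adjusted p = 0.712).

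Secreted signals were split. LIF, a cytokine of the IL6 family, read 3.95, 4.28 and 4.11 untreated, all under the control level, and 6.55, 6.47 and 7.19 at 8 h. It was at least 4.44-fold higher (adjusted p = 0.000897) and higher again at 24 h, at 8.06, 7.71 and 8.54. The other 7 measured members of the LIF and IL6 list were not called, so 12.5% of the list was called higher, beside 6.15% of all genes. IL6 had untreated values of 11.82, 11.80 and 11.06 and 8 h values of 11.72, 11.23 and 11.60, with a log2 change of -0.04 (SE 0.20) whose sign turned without untreated replicate 1 (0.04), untreated replicate 2 (0.16) or 8 h replicate 2 (0.15).

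Of 19 measured growth factors and hormones, 4 were called higher (21.1%, beside 6.15% of all genes) and 5 lower (26.3%, beside 8.03%). Besides PTHLH, the rises included BDNF, a neurotrophin, from 5.99, 6.50 and 4.95 to 7.47, 7.72 and 7.88 (log2 change 1.88, SE 0.41, adjusted p = 0.0266), and VEGFA, the main angiogenic factor, from 10.78, 11.15 and 10.10 to 11.98, 12.07 and 11.71 (log2 change 1.25, SE 0.22, adjusted p = 0.0118). NPPB, a natriuretic peptide, had a log2 change of 0.88 (adjusted p = 0.016). KITLG, the ligand of the KIT receptor, fell from 6.78, 6.57 and 7.06 to 5.30, 5.45 and 5.76, 2.47-fold (log2 change -1.30, SE 0.11, adjusted p = 0.00137). FGF7, a fibroblast product that acts on epithelium, and IGF1 fell by 0.93 and 0.80 on the log2 scale (adjusted p = 0.0153 and 0.00434). BDNF lost its call without untreated replicate 1 or 8 h replicate 1, 2 or 3 (adjusted p up to 0.131) and VEGFA without 8 h replicate 1 or 3 (adjusted p up to 0.0643). BDNF was also not called with no filter on low values (adjusted p = 0.0523), and the median over the 3 VEGFA probe sets was not called (adjusted p = 0.382). In this list, 3 genes were called higher and 3 lower without the block.

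S1PR1, the receptor for sphingosine 1-phosphate, had the clearest fall among 14 measured receptors, from 10.84, 10.92 and 9.90 to 9.57, 9.54 and 8.47, 2.57-fold (log2 change -1.36, SE 0.08, adjusted p = 0.00066), with both other probe sets called the same way. Replicate 3 started lower and fell by as much as the others, and the call was absent without the block (adjusted p = 0.122). FGFR2 was called higher (0.64, adjusted p = 0.0193) and FGFR1 lower (-0.41, adjusted p = 0.0307), while EGFR and PDGFRB had log2 changes of -0.37 and -0.25, not called. FGFR2 lost its call without untreated replicate 1 or 3 or 8 h replicate 1, 2 or 3 (adjusted p up to 0.1) and FGFR1 without untreated replicate 1, 2 or 3 or 8 h replicate 1, 2 or 3 (adjusted p up to 0.161). Neither was called without the block (adjusted p = 0.0531 and 0.516).

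In the list of matricellular, fibronectin and elastic fibre genes, 4 of 16 measured members were called higher and none lower. The share higher was 25%, beside 6.15% of all genes, and 8.03% of all genes were called lower. TNC, tenascin C, a glycoprotein of remodelling tissue, rose from 9.67, 9.91 and 9.82 to 10.82, 10.71 and 10.73, 1.93-fold (log2 change 0.95, SE 0.12, adjusted p = 0.00453). THBS2, a relative of THBS1, rose from 10.45, 10.56 and 11.05 to 11.41, 11.26 and 11.89, 1.78-fold (log2 change 0.84, SE 0.15, adjusted p = 0.0134). COMP, a cartilage matrix protein, was called at adjusted p = 0.0458, with only replicate 3 clearly above the control level untreated. FN1, fibronectin, read 14.55, 14.68 and 14.42 untreated and 14.80, 14.90 and 14.64 at 8 h, a log2 change of 0.23 in the same direction in each replicate number that was not called (adjusted p = 0.1). Another FN1 probe set, with a lower mean of 8.19 untreated and 9.38 at 8 h, was called higher by 1.19 log2 units (adjusted p = 0.0102), so the probe sets of this gene disagree. THBS2 lost its call without untreated replicate 1 or 8 h replicate 1 or 3 (adjusted p up to 0.0811) and COMP without untreated replicate 1 or 3, 8 h replicate 1 or 3 or 24 h replicate 1, 2 or 3 (adjusted p up to 0.19). Without the block TNC alone was called of these 4, and COMP was called in few other settings: its adjusted p was 0.101 in the 6 arrays alone and 0.0955 for the median over both its probe sets.

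Of 19 measured collagen and collagen processing genes, 3 were called higher (15.8%, beside 6.15% of all genes) and none lower (beside 8.03%). LOX, which cross-links collagen and elastin, rose from 12.33, 12.24 and 11.92 to 12.95, 12.65 and 12.56, 1.47-fold (log2 change 0.56, SE 0.09, adjusted p = 0.0086), and its relative LOXL1 rose 1.39-fold (adjusted p = 0.018). PCOLCE2, which enhances procollagen cleavage, rose from 11.51, 10.99 and 11.47 to 11.93, 11.67 and 11.96, 1.44-fold (log2 change 0.53, SE 0.09, adjusted p = 0.0119). COL1A2 read 9.17, 9.24 and 8.74 untreated and 8.96, 9.08 and 8.84 at 8 h, and COL3A1 5.79, 5.60 and 6.41 and 5.57, 5.57 and 6.01. Their groups overlapped, and their log2 changes of -0.09 (SE 0.09) and -0.21 (SE 0.13) were not called. LOX lost its call without 8 h replicate 1 or 3 (adjusted p up to 0.0613), PCOLCE2 without 8 h replicate 1, 2 or 3 (adjusted p up to 0.0669) and LOXL1 without untreated replicate 1 or 2 or 8 h replicate 1, 2 or 3 (adjusted p up to 0.104). LOX and PCOLCE2 were not called without the block (adjusted p = 0.0837 and 0.122).

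Among 17 measured proteoglycan and hyaluronan genes, 4 were called higher (23.5%, beside 6.15% of all genes) and none lower (beside 8.03%). CHSY1, which builds chondroitin sulfate chains, rose from 11.30, 11.53 and 10.82 to 12.41, 12.39 and 12.07, 2.10-fold (log2 change 1.07, SE 0.11, adjusted p = 0.00221). ASPN, asporin, a small proteoglycan that binds TGF-β, rose 1.42-fold (adjusted p = 0.0111) and SDC1, a cell surface proteoglycan, 1.32-fold (adjusted p = 0.0406; 0.231 for the median over its 4 probe sets). The abundant matrix proteoglycan genes DCN, LUM, BGN and VCAN had log2 changes of -0.12, 0.01, 0.18 and -0.18 and were not called. ASPN lost its call without 8 h replicate 1 or 3 (adjusted p up to 0.0746) and SDC1 without untreated replicate 1, 2 or 3, 8 h replicate 1, 2 or 3 or 24 h replicate 1 (adjusted p up to 0.198). Neither was called without the block (adjusted p = 0.191 and 0.150).

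Of 14 measured matrix proteases and their inhibitors, 2 were called lower (14.3%, beside 8.03% of all genes) and none higher (beside 6.15%). ADAMTS1, a protease of versican and other proteoglycans, read 10.70, 9.37 and 12.46 untreated and 8.31, 7.80 and 9.84 at 8 h. Its untreated replicate 2 overlapped the treated replicate 3, and within each number it fell, 4.56-fold on average (log2 change -2.19, SE 0.33, adjusted p = 0.00759); it was not called without the block (adjusted p = 0.159). ADAM17, a sheddase of membrane proteins, fell 1.41-fold (adjusted p = 0.0131), while the median over its 3 probe sets was not called (adjusted p = 0.839). MMP2, MMP14 and TIMP3 had log2 changes of -0.23, -0.18 and -0.36 and were not called. ADAM17 lost its call without untreated replicate 1 or 8 h replicate 1, 2 or 3 (adjusted p up to 0.0808).

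The contractile genes that mark a myofibroblast were already high and did not pass the test. Of 33 measured contractile and cytoskeletal genes, 2 were called higher (6.06%, beside 6.15% of all genes) and none lower, with a median log2 change of 0.03. ACTA2, smooth muscle α-actin, read 15.24, 15.36 and 15.38 untreated and 15.19, 15.34 and 15.43 at 8 h, a log2 change of -0.01 (SE 0.08, adjusted p = 0.974) that was 0.03 with arrays centred on their median. TAGLN read 14.83, 14.74 and 14.75 and 14.94, 14.80 and 14.93, and CNN1, calponin, 11.56, 11.73 and 11.61 and 11.76, 11.93 and 11.85, with log2 changes of 0.12 and 0.21. The values of ACTA2 lay close to 15.95, the highest on any array, and whether its signal was saturated was not tested.

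The members that rose were CSRP2 and ITGA5. CSRP2, a LIM-domain protein of smooth muscle and stellate cells, rose from 11.13, 11.38 and 10.48 to 12.80, 13.02 and 12.20, 3.20-fold (log2 change 1.68, SE 0.09, adjusted p = 0.000426). Its 3 differences within a replicate number were alike, and it held in every fit that left out 1 array. ITGA5, the α subunit of the fibronectin receptor, rose from 9.05, 9.39 and 7.89 to 10.22, 10.22 and 9.58, 2.35-fold (log2 change 1.23, SE 0.21, adjusted p = 0.0114). ITGA5 lost its call without 8 h replicate 1 or 3 (adjusted p up to 0.0698). It was not called without the block (adjusted p = 0.0988).

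Most genes of the secretory pathway and the unfolded protein response had small log2 changes above 0. Of 27 measured genes, 25 had a log2 change above 0, against 2851 of 6014 genes, and the median was 0.26. The test called 6 higher (22.2%, beside 6.15% of all genes) and none lower (beside 8.03%). CREB3L2, a membrane-bound transcription factor of the secretory pathway, rose from 8.71, 9.11 and 8.85 to 9.86, 9.92 and 10.46, 2.28-fold (log2 change 1.19, SE 0.15, adjusted p = 0.00421). MANF, a chaperone-like protein of the endoplasmic reticulum, rose from 12.04, 12.12 and 11.91 to 12.77, 12.74 and 12.84, 1.69-fold (log2 change 0.76, SE 0.09, adjusted p = 0.0036). In each replicate number MANF rose by a similar amount.

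The other calls were coat proteins of vesicles that leave the endoplasmic reticulum. SEC23B rose 1.48-fold, SEC24D 1.45-fold, and SEC23A and SAR1A had log2 changes of 0.44 and 0.43 (adjusted p = 0.0136, 0.0129, 0.0163 and 0.0249). The chaperones HSPA5 and HSP90B1 and the stress factor DDIT3 had log2 changes of 0.22, 0.05 and -0.13 and were not called. SEC23B lost its call without untreated replicate 1 or 8 h replicate 1 or 3 (adjusted p up to 0.0871) and SEC24D without 8 h replicate 2 or 3 (adjusted p up to 0.076). The list's calls fell to 3 without the block, without untreated replicate 1, without 8 h replicate 1 or 2 and without replicate 2, to 2 without 8 h replicate 3 and without replicate 3, to 4 without untreated replicate 3, and to none without replicate 1; they rose to 9 without 24 h replicate 3.

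**Figure D3:**
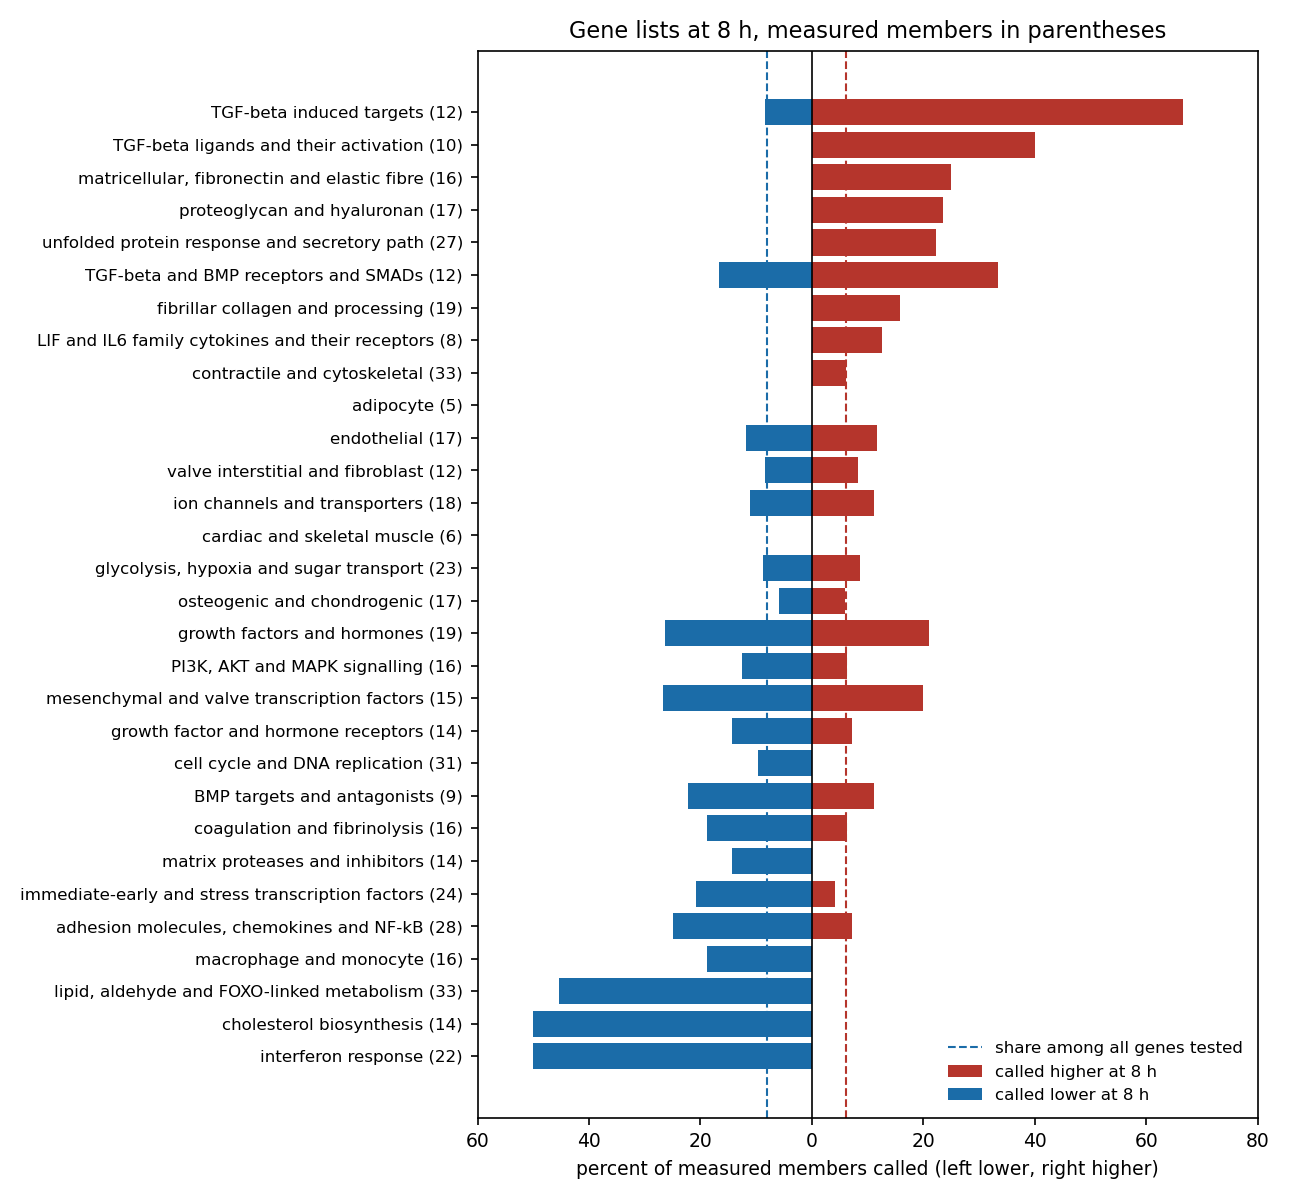
Bars give the percent of each gene list's measured members called lower (blue, to the left) and higher (red, to the right) at 8 h, and dashed lines the same share among all 6014 genes, 8.03% lower and 6.15% higher. The list of TGF-β induced targets reaches 66.7% higher, and the interferon and cholesterol lists reach 50% lower. The lists were chosen with earlier results of these data known, so their shares are a description only.

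Interferon response genes were lower as a group. All 22 measured members had a log2 change below 0, beside 3160 of 6014 genes, with a median of -0.44. The test called 11 lower (50%, beside 8.03% of all genes) and none higher. IFIT1, an antiviral RNA-binding protein, read 9.03, 7.53 and 9.69 untreated and 7.84, 6.43 and 8.83 at 8 h. Replicate 2 was lowest in each group, so the groups overlapped, yet each number fell by about a factor of 2 (log2 change -1.05, SE 0.09, adjusted p = 0.00148). IRF1, a transcription factor that drives interferon genes, fell from 8.45, 8.06 and 8.46 to 7.36, 7.15 and 7.46, 2.00-fold (log2 change -1.0, SE 0.10, adjusted p = 0.0021), with no overlap. RSAD2, viperin, fell from 10.18, 9.04 and 10.14 to 9.15, 8.12 and 9.14, 1.97-fold (log2 change -0.98, SE 0.12, adjusted p = 0.00404). FAM26F, an interferon-inducible membrane protein, fell from 7.80, 7.63 and 7.66 to 6.03, 6.25 and 5.97, 3.05-fold (log2 change -1.61, SE 0.19, adjusted p = 0.00351).

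The calls also took in the guanylate-binding proteins GBP1 (-0.91) and GBP2 (-0.64), IFIT3 (-0.84), the RNA sensor DDX58 (-0.59), IRF7 (-0.58), the transducer STAT2 (-0.56) and the peptide transporter TAP1 (-0.40). ISG15, MX1 and OAS1 had log2 changes of -0.34, -0.27 and -0.40 and were not called. Without the block, 2 of the 22 were called lower, and IFIT1 (adjusted p = 0.559) and RSAD2 (adjusted p = 0.318) were not among them. The count was 7 without untreated replicate 2 or 3, 6 without 8 h replicate 1, 2 or 3, 5 without replicate 2, 7 without replicate 3 and 0 without replicate 1, where limma called 3 probe sets in all. The macrophage and monocyte list, whose cells respond strongly to interferon, had 3 of 16 members called lower (18.8%, beside 8.03% of all genes) and none higher. The 3 were CD14 (-0.59), SLA-DMA (-0.49) and MRC1 (-0.48). None of these 3 was called without 8 h replicate 1, 8 h replicate 3, replicate 2 or replicate 3. Over the 16, untreated means ran from 4.59 (ITGB2) to 9.68 (SLA-DMA), with PTPRC and SPI1 also near the control level at 4.88 and 4.84. Their median log2 change was -0.08, with 11 members below 0 and 5 above. Outside the list, the macrophage genes FCGR3A, FOLR2 and FCGR2B were named after their values were seen, so their direction adds no support. They were well above the control level, with untreated means of 8.76, 9.26 and 7.33, and were called lower with log2 changes of -0.52, -0.30 and -0.39. These calls were not recomputed without single arrays. The part of these cells in the interferon result was not tested.

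Adhesion molecules, chemokines and NF-κB genes went both ways. Of 28 measured, 7 were called lower (25%, beside 8.03% of all genes) and 2 higher (7.14%, near the 6.15% of all genes). Log2 changes lay below 0 in 15 and above 0 in 13, with a median of -0.06. VCAM1, an adhesion molecule that binds white blood cells, read 14.09, 13.78 and 14.23 untreated and 12.55, 12.34 and 12.64 at 8 h, with the arrays of each group close together. The fall was 2.87-fold (log2 change -1.52, SE 0.25, adjusted p = 0.00965). AMCF-II, a pig chemokine for neutrophils, fell from 13.63, 14.23 and 14.35 to 12.66, 12.87 and 13.26, 2.20-fold (log2 change -1.14, SE 0.09, adjusted p = 0.00133), and CXCL2, another neutrophil chemokine, from 9.18, 9.68 and 8.78 to 8.09, 8.67 and 7.59, 2.14-fold (log2 change -1.10, SE 0.11, adjusted p = 0.0024). The groups did not overlap for either chemokine, though replicate 2 of CXCL2 was high in each group, and CXCL2 was not called without the block (adjusted p = 0.174).

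The interleukin 1 receptor IL1R1 (-0.93) and NFKBIA, the inhibitor of NF-κB that NF-κB itself induces (-0.90), were also called lower, with CXCL12 (-0.54) and SELP (-0.50). PTGS2, the inducible cyclooxygenase, went the other way, from 10.45, 9.68 and 10.06 to 11.34, 10.47 and 11.67, 2.14-fold higher (log2 change 1.10, SE 0.17, adjusted p = 0.00882), as did ICAM1 (0.65, adjusted p = 0.018). CCL2, IL1B and CXCL8 had log2 changes of 0.12, 0.16 and 0.68 and were not called. VCAM1 lost its call without 8 h replicate 1 (adjusted p = 0.0549) and PTGS2 without 8 h replicate 3 (adjusted p = 0.0537). Without the block 4 of the list were called lower and none higher, PTGS2 included (adjusted p = 0.162). The lower calls numbered 3 without 8 h replicate 1, without 8 h replicate 3 and without replicate 2, and none without replicate 1.

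All 14 measured members of the list of cholesterol synthesis and its regulation had a log2 change below 0, beside 3160 of 6014 genes. The median was -0.37, and 7 were called lower (50%, beside 8.03% of all genes), of which 5 are enzymes of synthesis. FDFT1, squalene synthase, which commits the pathway to sterols, fell from 12.03, 11.75 and 11.94 to 11.25, 11.14 and 11.0, 1.71-fold (log2 change -0.77, SE 0.10, adjusted p = 0.00424). INSIG1, a sterol-regulated brake on the pathway, fell from 11.24, 11.41 and 11.25 to 10.80, 10.89 and 10.34, 1.54-fold (log2 change -0.63, SE 0.11, adjusted p = 0.0124), although the median over both its probe sets was not called (adjusted p = 0.143). HMGCS1, an early enzyme, fell 1.48-fold (adjusted p = 0.0465), and ABCA1, which exports cholesterol and is induced by sterol load, 1.47-fold (adjusted p = 0.0268). CYP51, MSMO1 and NSDHL had log2 changes of -0.37, -0.41 and -0.32, each called.

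FDFT1 alone of the cholesterol list was called without the block, without 8 h replicate 1, without 8 h replicate 3 or without replicate 2, and 2 members without untreated replicate 1, without 8 h replicate 2 or without replicate 3. The count was 3 without untreated replicate 3, 4 without 24 h replicate 1 and 4 with arrays centred on their median or with no filter on low values, and none was called without replicate 1. INSIG1 lost its call without 8 h replicate 1 or 3 (adjusted p up to 0.0745), HMGCS1 without untreated replicate 1 or 3, 8 h replicate 1, 2 or 3 or 24 h replicate 1 (adjusted p up to 0.194) and ABCA1 without untreated replicate 1 or 2 or 8 h replicate 1, 2 or 3 (adjusted p up to 0.132). SREBF2, the transcription factor that drives these genes, had a log2 change of -0.37, not called.

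The list of lipid, aldehyde and FOXO-linked metabolism had 15 of 33 measured members called lower (45.5%, beside 8.03% of all genes) and none higher. Its median log2 change was -0.42. Like the other lists, it was chosen with earlier results of these data known, so its share is a description only. Its largest falls were PDK4, a kinase that shuts down glucose oxidation, from 6.48, 6.83 and 7.57 to 4.80, 5.73 and 5.23 (log2 change -1.71, SE 0.23, adjusted p = 0.005), and ALDH1A1, a retinaldehyde dehydrogenase, from 8.63, 8.04 and 9.82 to 7.04, 6.85 and 7.74 (log2 change -1.62, SE 0.16, adjusted p = 0.0021). GPD1L, related to glycerol 3-phosphate dehydrogenase, fell from 7.79, 7.81 and 8.58 to 6.24, 6.60 and 6.61, 2.99-fold (log2 change -1.58, SE 0.14, adjusted p = 0.00163). In all 3 the largest difference was in replicate 3. KLF15, a glucocorticoid-induced metabolic factor, fell from 6.46, 6.60 and 7.33 to 5.42, 5.63 and 5.54, 2.41-fold (log2 change -1.27, SE 0.20, adjusted p = 0.00906).

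Called lower with smaller changes were CPT1A, the gate of fatty acid oxidation (-0.89), MAOA (-0.86) and MAOB (-0.56), which degrade amines, TXNIP, a brake on glucose uptake (-0.86), SESN1 (-1.19), ACADL (-0.64), FASN (-0.55) and the mitochondrial superoxide dismutase SOD2 (-0.53). FOXO1 itself had a log2 change of -0.15, not called. PPARG and the fat cell marker FABP4 lay under the control level in both groups, with untreated means of 3.69 and 4.31, so no change is given. Without the block 6 of the 33 were called, ALDH1A1 not among them (adjusted p = 0.0876). The count was 8 without untreated replicate 1 or 8 h replicate 3, 10 without untreated replicate 3, 7 without 8 h replicate 1 or without replicate 2, 9 without replicate 3 and 0 without replicate 1. KLF15 lost its call without 8 h replicate 1 or 3 (adjusted p up to 0.0567).

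**Figure D4:**
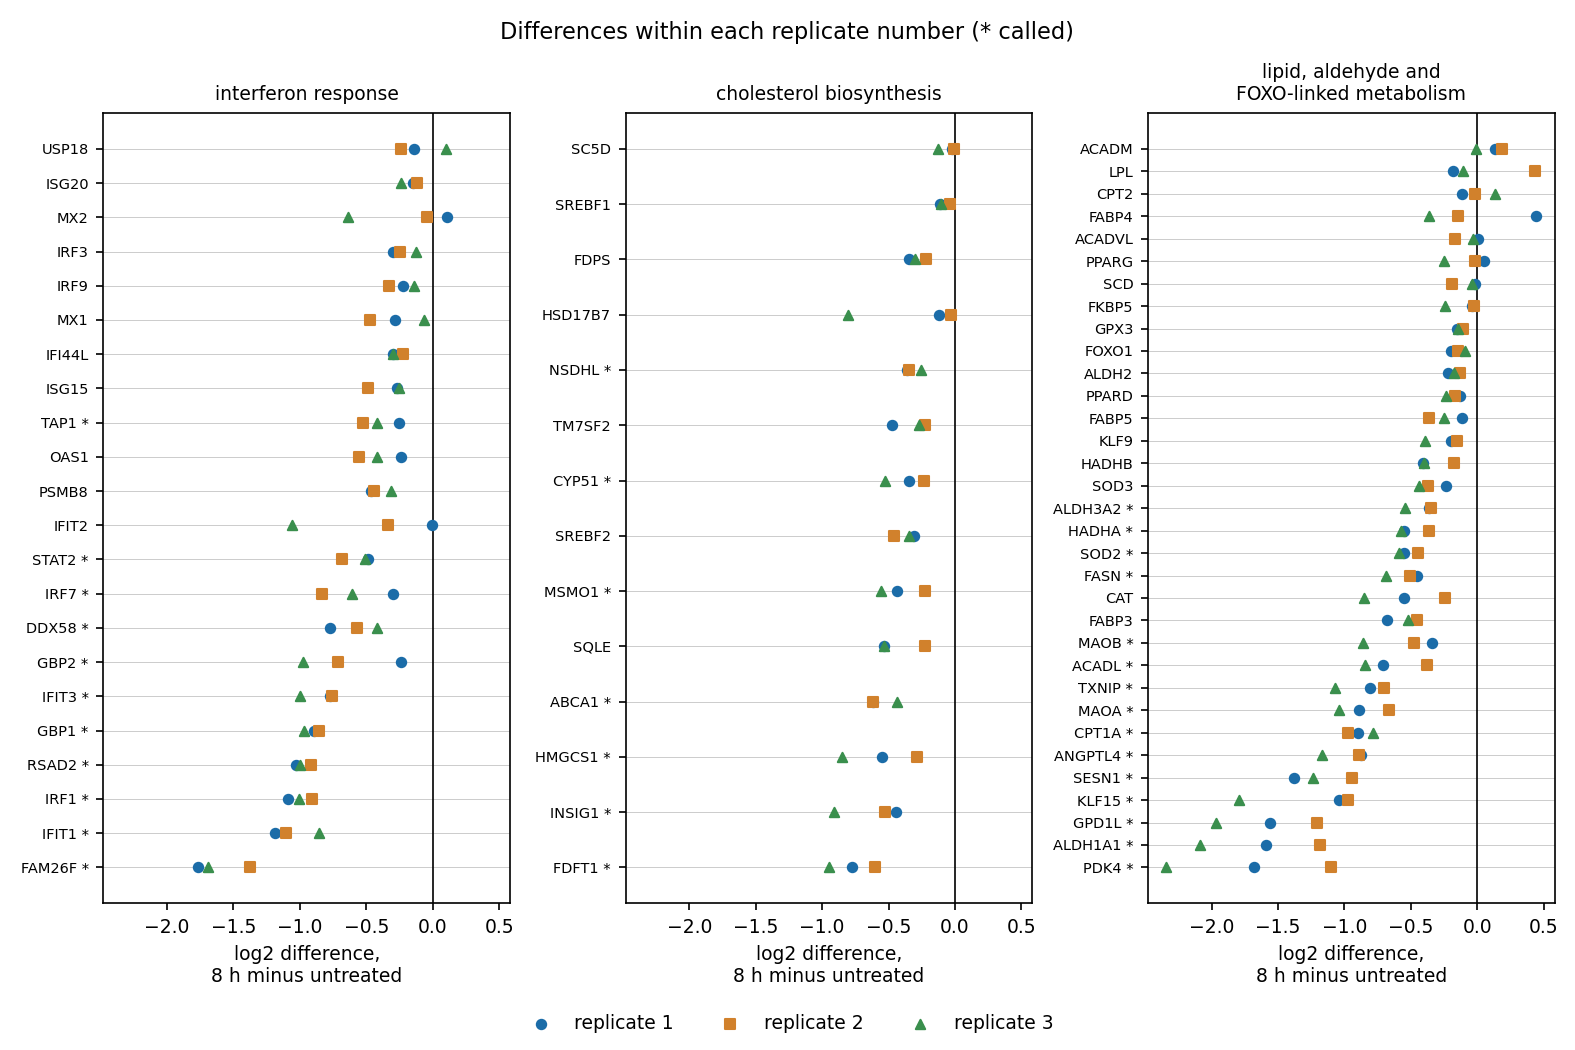
Each row is 1 measured gene of the interferon, cholesterol or lipid, aldehyde and FOXO-linked list, and each symbol the log2 difference, 8 h minus untreated, within 1 of 3 replicate numbers; an asterisk marks a call. Most symbols lie left of 0, down to FAM26F, FDFT1 and PDK4 with mean log2 changes of -1.61, -0.77 and -1.71; the rows of LPL, PPARG and FABP4 rest on levels under the control level and show no measured change.

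Of 23 measured genes of glycolysis, hypoxia and sugar transport, VEGFA and SLC2A3 were called higher and PDK4 and ADM lower. These calls made 8.70% each way, near the 6.15% higher and 8.03% lower of all genes. GAPDH, LDHA and PGK1 had log2 changes of -0.05, 0.08 and 0.11, not called. ADM, adrenomedullin, a vessel-relaxing peptide, fell from 11.77, 11.79 and 12.50 to 10.58, 10.42 and 10.86, 2.64-fold (log2 change -1.40, SE 0.11, adjusted p = 0.00113), with no overlap between groups. SLC2A3, a glucose transporter, rose 1.45-fold (adjusted p = 0.0459). SLC2A5, a fructose transporter outside the lists, is named because it had the largest log2 change among genes that were not called, 2.11 (adjusted p = 0.051). SLC2A3 lost its call without untreated replicate 1 or 3, 8 h replicate 1, 2 or 3 or 24 h replicate 1 (adjusted p up to 0.187). It was not called without the block (adjusted p = 0.295), with no filter on low values (adjusted p = 0.0758) or in the 6 arrays alone (adjusted p = 0.0621).

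Transcription factors of the valve and mesenchyme were split, 3 of 15 measured called higher and 4 lower. These calls made 20% higher, beside 6.15% of all genes, and 26.7% lower, beside 8.03%. Besides SNAI1, MEIS1, a homeobox factor, rose 1.83-fold (adjusted p = 0.0313) and TCF21, a factor of fibroblast precursors, had a log2 change of 0.47 (adjusted p = 0.0202). PRRX1, a homeobox factor of fibroblasts, fell from 13.35, 13.37 and 13.55 to 12.77, 12.83 and 13.02, 1.46-fold (log2 change -0.55, SE 0.07, adjusted p = 0.00538). TEAD1, the DNA-binding partner of YAP, fell 1.63-fold (adjusted p = 0.0194), and MEF2A and GATA4 were called with log2 changes of -0.47 and -0.52. MEIS1 lost its call without untreated replicate 1 or 3, 8 h replicate 1, 2 or 3 or 24 h replicate 1 (adjusted p up to 0.145) and TEAD1 without untreated replicate 1 or 2 or 8 h replicate 1, 2 or 3 (adjusted p up to 0.108). MEIS1 was not called without the block (adjusted p = 0.0874) or with no filter on low values (adjusted p = 0.0577). SOX9 and TWIST2 had log2 changes of -0.07 and -0.04, not called.

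In the list of immediate-early and stress factors, 1 of 24 measured members was called higher and 5 lower. The shares were 4.17% higher, beside 6.15% of all genes, and 20.8% lower, beside 8.03%. GADD45B, a stress-induced activator of p38 signalling, rose from 9.56, 9.33 and 9.44 to 10.54, 10.23 and 10.79, 2.11-fold (log2 change 1.08, SE 0.11, adjusted p = 0.0028). HMOX1, heme oxygenase 1, an antioxidant enzyme, fell from 9.17, 9.12 and 10.48 to 7.65, 8.16 and 8.48, 2.81-fold (log2 change -1.49, SE 0.19, adjusted p = 0.00422). The orphan nuclear receptor NR4A3 fell from 6.93, 6.78 and 6.80 to 6.20, 6.10 and 6.13, 1.62-fold (log2 change -0.69, SE 0.11, adjusted p = 0.00839), and NR4A2 1.89-fold (adjusted p = 0.0173). FOS, JUN, EGR1 and MYC, first responders whose peaks come early, had log2 changes of -0.24, -0.25, 0.26 and 0.40 and were not called. NR4A3 lost its call without 8 h replicate 1 or 3 (adjusted p up to 0.0556) and NR4A2 without untreated replicate 3 or 8 h replicate 1 or 3 (adjusted p up to 0.0916). HMOX1 (adjusted p = 0.0607) and NR4A2 (adjusted p = 0.104) were not called without the block.

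Signalling genes of the PI3K, AKT and MAPK pathways had 1 of 16 measured members called higher and 2 lower. The shares were 6.25%, beside 6.15% of all genes, and 12.5%, beside 8.03%. PIK3IP1, an inhibitor of PI3K, fell from 7.57, 7.44 and 7.34 to 6.85, 6.48 and 6.11, 1.95-fold (log2 change -0.97, SE 0.13, adjusted p = 0.00466). MAPK14, the p38α kinase, fell 1.48-fold (adjusted p = 0.00722), and RHOB, a small GTPase, rose 1.39-fold (adjusted p = 0.0342). MAPK14 lost its call without 8 h replicate 1 (adjusted p = 0.0547) and RHOB without untreated replicate 1, 2 or 3, 8 h replicate 1, 2 or 3 or 24 h replicate 1 (adjusted p up to 0.14). RHOB was not called without the block (adjusted p = 0.123), in the 6 arrays alone (adjusted p = 0.0568) or with no filter on low values (adjusted p = 0.0546).

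Among 18 measured channels and transporters, 2 were called higher and 2 lower (11.1% each, beside 6.15% higher and 8.03% lower of all genes). AQP3, a water and glycerol channel, read 4.74, 3.64 and 5.24 untreated, near the control level, and 6.76, 5.73 and 8.07 at 8 h. Counted from the control level it was 4.82-fold higher (adjusted p = 0.00109). Untreated replicates 1 and 3 lay above that level, so this is not a lower bound. Over the settings tried its log2 change ran from 2.00 to 2.47. It rose in each number from a different start and was not called without the block (adjusted p = 0.121). KCNE1, a potassium channel subunit, fell from 10.41, 9.74 and 11.37 to 8.18, 8.13 and 9.31, 3.90-fold (log2 change -1.96, SE 0.31, adjusted p = 0.00882). KCNMA1, the pore of the large-conductance potassium channel, read 4.90, 5.06 and 4.80 untreated, near the control level, and 5.60, 5.48 and 5.72 at 8 h. Its rise was 1.60-fold (adjusted p = 0.0445), and ATP1B1, a sodium pump subunit, fell 1.38-fold (adjusted p = 0.0206). KCNE1 lost its call without 8 h replicate 1 (adjusted p = 0.0515), KCNMA1 without untreated replicate 1 or 3, 8 h replicate 1, 2 or 3 or 24 h replicate 1 or 3 (adjusted p up to 0.183) and ATP1B1 without untreated replicate 1, 2 or 3 or 8 h replicate 1, 2 or 3 (adjusted p up to 0.114). KCNMA1 (adjusted p = 0.0826) and ATP1B1 (adjusted p = 0.298) were not called without the block, nor was KCNMA1 with no filter on low values (adjusted p = 0.0772).

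Of 17 measured osteogenic and chondrogenic genes, COMP was called higher and ENPP1, which makes the calcification inhibitor pyrophosphate, lower (-0.53, adjusted p = 0.0326). Each call made 5.88% of the list, near the 6.15% higher and 8.03% lower of all genes. SPP1 and MGP had log2 changes of -0.11 and 0.11, not called, and ALPL lay under the control level in both groups. Of 31 cell cycle and DNA replication genes, 26 had a log2 change below 0, beside 3160 of 6014 genes. Called lower were 3 (9.68%, near the 8.03% of all genes): CDC25B (-0.73), CDC20 (-0.57) and MCM3 (-0.35), with adjusted p = 0.0217, 0.0211 and 0.0325. CCNB1, PLK1 and CDKN1A had log2 changes of 0.02, 0.03 and -0.03, not called. ENPP1 lost its call without untreated replicate 2 or 3 or 8 h replicate 1, 2 or 3 (adjusted p up to 0.16), CDC25B without untreated replicate 1, 2 or 3 or 8 h replicate 1, 2 or 3 (adjusted p up to 0.0863), CDC20 without untreated replicate 1 or 3 or 8 h replicate 1 or 3 (adjusted p up to 0.115) and MCM3 without untreated replicate 1, 2 or 3 or 8 h replicate 1, 2 or 3 (adjusted p up to 0.142). Without the block, the adjusted p was 0.318 for CDC25B, 0.408 for CDC20, 0.422 for MCM3 and 0.219 for ENPP1.

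Several large changes lay outside the lists. RNF128, a ubiquitin ligase, read 4.34, 4.96 and 3.70 untreated and 5.36, 6.82 and 6.14 at 8 h. Counted from the control level it was 2.88-fold higher (adjusted p = 0.005, and 0.0530 without the block). Untreated replicate 2 lay above that level, so this is not a lower bound. Over the settings tried the log2 change of RNF128 ran from 1.40 to 2.15. PLEK2, a relative of pleckstrin that acts on actin, rose from 5.80, 6.26 and 5.74 to 7.71, 7.90 and 7.0, 3.03-fold (log2 change 1.60, SE 0.15, adjusted p = 0.00181). ATP10A, a lipid flippase, rose from 7.99, 7.58 and 7.85 to 9.62, 8.89 and 9.57, 2.94-fold (log2 change 1.56, SE 0.16, adjusted p = 0.00228). These 2 genes rose in every number without overlap. CDO1, cysteine dioxygenase, which starts taurine synthesis, fell from 8.52, 7.74 and 9.84 to 6.42, 6.10 and 7.84, 3.76-fold (log2 change -1.91, SE 0.16, adjusted p = 0.00134); its groups overlapped, and it was not called without the block (adjusted p = 0.123).

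Of 17 measured endothelial markers, 2 were called higher, ENG and ERG (1.10, adjusted p = 0.0445), and 2 lower, PECAM1 and NOS3 (-0.35, adjusted p = 0.0472). Either way this was 11.8% of the markers, beside 6.15% higher and 8.03% lower of all genes. CDH5, VE-cadherin, read 9.96, 10.79 and 6.72 untreated and 9.97, 10.71 and 6.81 at 8 h, a log2 change of 0.01 that turned negative without untreated replicate 1 (-0.01), untreated replicate 3 (-0.10) or 8 h replicate 2 (-0.05). PECAM1 fell from 10.54, 10.93 and 8.67 to 9.92, 10.29 and 7.78, 1.64-fold (log2 change -0.72, SE 0.10, adjusted p = 0.00614), and was not called without the block (adjusted p = 0.735); replicate 3 stood about 2 log2 units below the others in each group. CLDN5, a tight junction protein, had a log2 change of -1.50 that was not called (adjusted p = 0.059). Since S1PR1, THBD, TFPI, ENG and PECAM1 are also made by endothelium, these marker values stand beside their results; the part of endothelial cells in them was not tested.

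The 24 h arrays show where the early changes stood later. The 8 h and 24 h groups share the untreated arrays, so their changes are given side by side, and the difference was tested directly as 24 h against 8 h. That test called 2.44% of all probe sets. By gene, it called 51 of 6014 genes higher at 24 h (0.848%) and 111 lower (1.85%), 2.69% together. Of the 370 genes higher at 8 h, 15 were higher again and 8 lower at 24 h, and 347 were not called. Of the 483 lower at 8 h, 47 were lower again and 16 higher, and 420 were not called. So 62 genes went further and 24 moved back, and the 8 h arrays enter both the choice of these genes and the test. HTR1D, among the 62, lay under the control level both untreated and at 8 h.

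Among the genes that went further, LIF rose by another 1.37 log2 units between 8 h and 24 h (adjusted p = 0.0166), ASPN by 1.21 (adjusted p = 0.00216) and TNC by 0.82 (adjusted p = 0.0229). VCAM1 fell by a further 1.51 to 11.30, 11.31 and 10.39 (adjusted p = 0.0282), ADM by 0.97 and IFIT1 by 0.88. PPL, periplakin, named because it fell furthest, had log2 changes of -1.21 at 8 h and -3.53 at 24 h. PMEPA1, F3, PTHLH, SHAS2 and SNAI1 had smaller later differences: those of 0.06, 0.20, 0.35, 0.19 and -0.03 were not called.

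ENO3, the muscle form of enolase, was the largest change that turned. It read 6.57, 6.47 and 7.74 untreated, 8.11, 7.24 and 9.97 at 8 h and 6.01, 5.90 and 7.06 at 24 h, so the 24 h array of each number lay below its untreated array. Its rise at 8 h was 2.85-fold (log2 change 1.51, SE 0.27, adjusted p = 0.0133), and the later drop was 2.12 log2 units (adjusted p = 0.0145). NR4A3 returned to 7.27, 6.70 and 7.04 and ABCA1 to 7.36, 7.62 and 7.28, log2 rises of 0.86 and 0.80 from 8 h (adjusted p = 0.0137 and 0.0240). ANGPTL4, PDE3A, a cAMP phosphodiesterase, and MAP1A, a microtubule protein, were lower at 8 h by 0.98, 1.12 and 1.25 log2 units and close to untreated at 24 h, with log2 changes of -0.09, -0.17 and -0.26. These genes were named after their values were seen. Without the block, 1 gene moved back and 1 went further, of 270 called at 8 h; without replicate 1 or replicate 2 there were 0 of each, and without replicate 3 there were 2 and 8. ENO3 lost its call without untreated replicate 1 or 3 or 8 h replicate 1 (adjusted p up to 0.064). ENO3 at 8 h was not called without the block (adjusted p = 0.267).

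**Figure D5:**
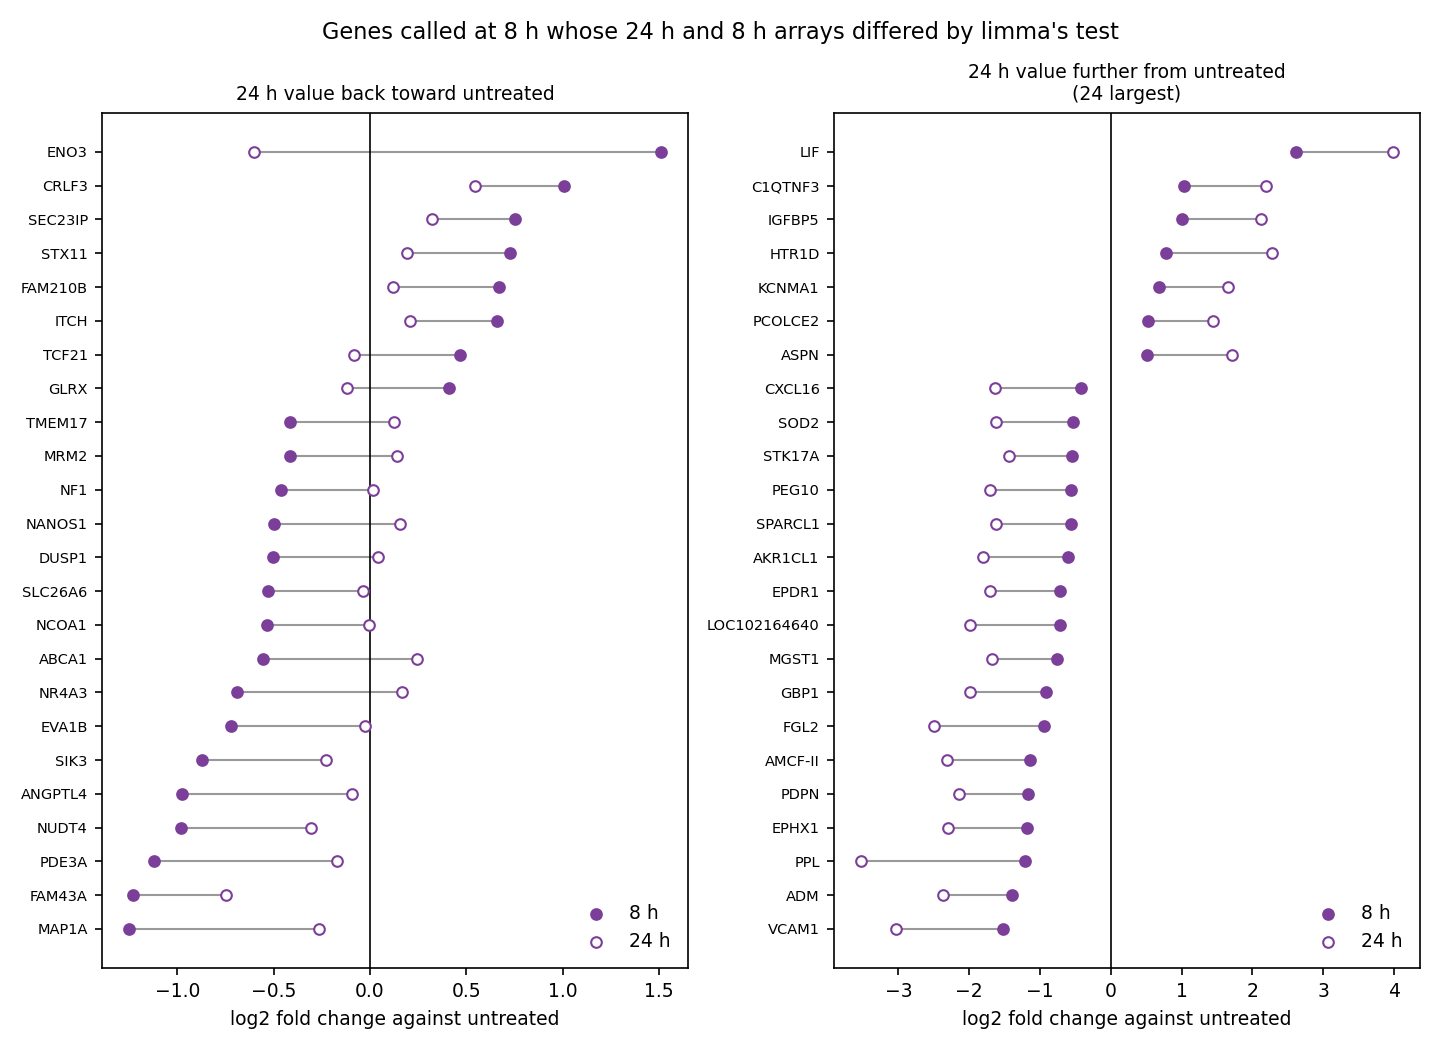
Each row is 1 gene called at 8 h that also differed between 24 h and 8 h, with its log2 fold change against untreated at 8 h (filled) and 24 h (open) on the x axis. The left panel holds the 24 genes whose 24 h value lay back toward untreated, among them ENO3 (1.51, then -0.60), and the right panel 24 of the 62 that went further, among them ASPN (0.51, then 1.71). LIF and HTR1D are drawn at fitted differences, since their untreated levels were under the control level. For HTR1D the 8 h mean of 3.86 was under it too, so its 8 h point shows no measured change.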

How the data were processed

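The values were the authors' deposited log2 expression values of the series table, 1 per probe set and array; GCRMA, a background correction and normalisation for Affymetrix arrays, is named per the submitters' processing notes without a version, with settings not given in the sources used here. No further normalisation was applied. Of 23999 probe sets, 64 controls were left out, and 17638 over log2 4 in at least 3 of 12 arrays were tested, 8466 with 1 gene symbol, 163 with several and 9009 with none in GEO's platform annotation. Where several probe sets shared a symbol, the one with the highest mean over the 12 arrays stood for the gene.

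limma 3.58.1 (R 4.3.3; lmFit, eBayes) was fitted to the 9 P2 arrays with the replicate number as a fixed block (4 residual degrees of freedom), two-sided, with Benjamini-Hochberg adjustment over all probe sets tested. The pairing comes from shared numbers in the labels. Deviations from group means correlated at 0.348 to 0.679 in the 9 same-number pairs and at -0.513 to 0.0796 in the 18 others. Replicate arrays of a P2 group correlated at 0.982 to 0.994, and the median SE was 0.11. The number of arrays, 3 a group, limits the precision.

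A group mean under 4.58, the 95th percentile of the control probe sets, was taken as not well above background. The fold was then counted from 4.58, without error. It is a lower bound only where every array of that group lay under 4.58. The script was tested on simulated data. The genes and lists were chosen with earlier results of these data known. Named by rule were the 12 largest rises and falls among called genes whose 3 same-number differences agreed, up to 4 called members of each list and a panel. Alternatives were the block, the filter, the scaling, the low values, the probe set choice and each array left out; the list counts under alternatives were added after seeing the data.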

Additional observations from a re-analysis of the deposited data

Results flagged for a closer look

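In 19 of the genes picked by rule, the change at 24 h differed from that at 8 h by the direct test of the 24 h against the 8 h arrays (limma, adjusted p under 0.05). Values are the log2 difference, 24 h minus 8 h. Among genes higher at 24 h than at 8 h, LIF differed by 1.37, ASPN by 1.21, KCNMA1 by 0.97, PCOLCE2 by 0.92, NR4A3 by 0.86, TNC by 0.82, ABCA1 by 0.80, ITGAV by 0.56 and COL1A2 by 0.47. LIF, ASPN, KCNMA1, PCOLCE2, TNC and ITGAV continued the rise called at 8 h, while NR4A3 and ABCA1 had been called lower at 8 h. COL1A2 was not called at 8 h.

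Lower at 24 h than at 8 h were ENO3 (-2.12), VCAM1 (-1.51), AMCF-II (-1.18), ADM (-0.97), COL3A1 (-0.93), PECAM1 (-0.88), IFIT1 (-0.88), RSAD2 (-0.79), KITLG (-0.58) and S1PR1 (-0.57). ENO3 had been called higher at 8 h. COL3A1 was not called at 8 h, and the other 8 continued a fall. The endothelial markers beside the PECAM1 and S1PR1 values averaged 7.01, 7.24 and 5.81 at 8 h in replicates 1, 2 and 3 and 6.86, 7.0 and 5.61 at 24 h; their part in these results was not tested. The test of 24 h against 8 h called 198 probe sets higher and 232 lower with all 9 P2 arrays.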

How the results depend on the processing

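With 3 arrays a group and 4 residual degrees of freedom, counts of calls moved widely. The test favoured differences that agreed within replicate numbers, and several alternatives leave the fold change as it is, so a sign that stays says little about stability. The main fit had the pairing as a replicate block; with no replicate block, 335 probe sets were called higher and 350 lower at 8 h in the 9 P2 arrays, and 447 higher and 447 lower in all 12 arrays. For 24 h against 8 h, the higher and lower calls were 9 and 11 (no replicate block, 9 P2 arrays), 25 and 16 (no replicate block, 12 arrays), 97 and 121 (replicate block in the 6 arrays compared), 122 and 119 (replicate block as a random effect), 79 and 127 (no filter), 377 and 383 (filter at log2 6) and 481 and 456 (eBayes with trend and robust).

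Leaving out arrays gave 2 to 1168 calls higher and 1 to 1394 lower at 8 h, and 0 to 246 higher and 0 to 257 lower for 24 h against 8 h; limma called 0 there without replicate 1 and without replicate 2, where 1798 and 3098 probe sets had an unadjusted p under 0.05. Of the 85 called genes picked by rule, 41 stayed called with no replicate block in the 9 P2 arrays, 68 with a random block, 74 with no filter, 79 by the median over a gene's probe sets, 80 in the 6 arrays, 81 after quantile normalisation and 84 after median centring. Signs turned for 3 genes that were never called: ACTA2 was 0.025 after median centring and ran from -0.047 to 0.018 with arrays left out, IL6 from -0.34 to 0.22 and CDH5 from -0.10 to 0.13. The cause of these differences was not tested. Signal over background limits genes with a group mean under the control level. LIF and TMEM100 have a bound in place of a fold. AQP3, RNF128 and THBD have a fold counted from that level, and PPARG, FABP4 and ALPL no change. HTR1D has no measured change at 8 h.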
